A study of Mus musculus with 6 samples.

Results

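The smooth muscle contractile apparatus was followed through 39 genes for actins, myosins, tropomyosins, calponins and transgelins, myosin phosphatase, intermediate filaments, dense body and LIM proteins, and membrane attachment proteins. They were taken by symbol from a table of 27179 genes, and each symbol matched 1 row. The cells were primary vascular smooth muscle cells from mouse aorta, which contract to set the width of the vessel, grown in DMEM with serum. There were 3 libraries labelled WT and 3 labelled Bmal1 KO, and both groups alike had been kept for 7 days under what is labelled a diabetic condition, in which glucose was at 4.5 g/L and hydrogen peroxide was added to 0.3 mM. All 6 libraries carry 1 batch label. The product of Bmal1 is a core transcription factor of the circadian clock and acts as a dimer with CLOCK. The allele, the way Bmal1 was deleted, and the age and sex of the mice were not among the labels used here. The labels do not tie replicates to separate cultures or mice, so p-values cover the spread between libraries, which may be technical.

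Smooth muscle shortens when myosin filaments pull on actin filaments that are anchored in dense bodies and at the membrane. Calcium-bound calmodulin turns on myosin light chain kinase, which phosphorylates the regulatory light chain and starts the cross-bridge cycle. Myosin phosphatase reverses that step. In culture, vascular smooth muscle cells commonly lose the smooth muscle isoforms of these proteins and rely on the nonmuscle isoforms that most cells have.

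Recovered reads came to between 32503525 and 44657471 per library. The gene for Bmal1, listed under its older symbol Arntl, stood at 529, 619 and 590.4 normalized read counts in WT and at 1036, 941 and 1036 in the libraries labelled Bmal1 KO. It was thus higher where the label says that it was deleted, and a sum over the whole gene does not show a missing exon. All directions given here are between libraries so labelled. The groups also differed in sex-linked RNA. Xist lay between 12.4 and 89.9 in WT and between 3842 and 3887 in the others, while Y-linked Ddx3y lay between 2784 and 3314 and between 68.5 and 82.5. Sex-linked expression and the genotype label cannot be told apart in these libraries. In bulk RNA, fewer cells of a type and less RNA per cell cannot be told apart either.

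WT replicate 1 stood apart from the other WT libraries by transcript length. A trend fitted over all genes that passed a filter on low values placed it 0.38 above the gene mean on the log2 scale at an exonic length of 1000 bases and 0.17 below at 8000. At 1000 bases WT replicates 2 and 3 were at 0.074 and 0.025. Replicates 1 to 3 labelled Bmal1 KO were at -0.033, -0.21 and -0.16 there, and at 0.070, 0.10 and 0.066 at 8000. The trend thus also differed between the groups, and leaving out WT replicate 1 does not remove all of it. Among the 19 members of at least 5000 bases, WT replicate 1 was the lowest WT library for 14. Among the 14 members under 3000 bases it was the highest for 11. Spearman's rank correlation between length and the deviation of this library was -0.66 over the 39 members, which share the same libraries. The median within-group SD of the members on the log2 scale was 0.163 in WT and 0.0597 in the libraries labelled Bmal1 KO.

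**Figure D1:**
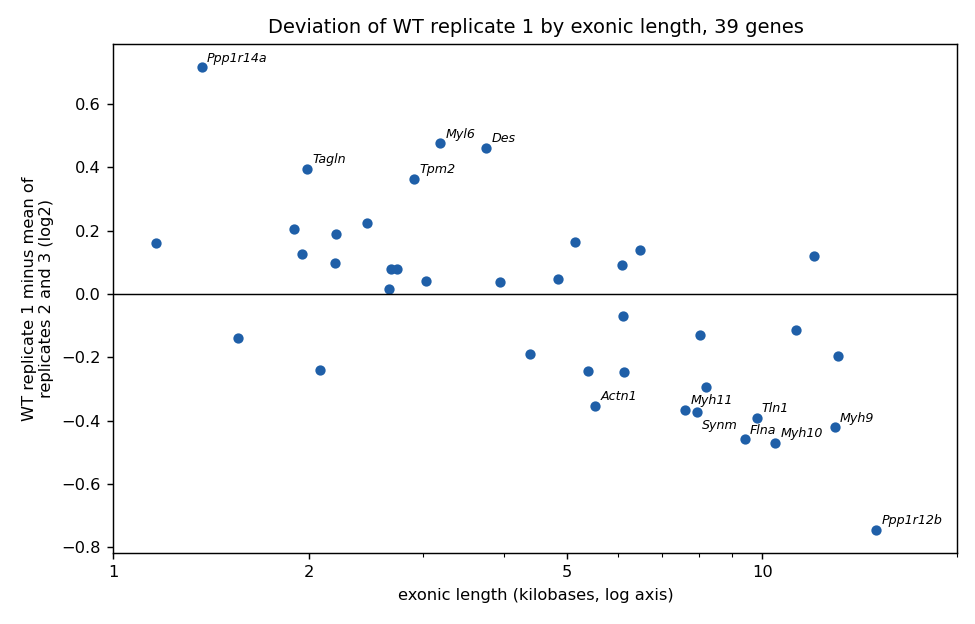
Deviation of WT replicate 1 from the mean of WT replicates 2 and 3 (log2 scale) against exonic length in kilobases (log axis), 1 point per member. Points fall from left to right, from Ppp1r14a at 0.72 to Ppp1r12b at -0.74.

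Most genes of the apparatus rose from WT to the libraries labelled Bmal1 KO. By limma with Benjamini-Hochberg adjustment over all tested genes and a threshold of 0.05, 28 of 39 members were higher, 6 were lower and 5 did not pass. The background was large, since 36.2% of the 16086 tested genes were higher by the same rule and 34.9% were lower, 71.1% in all. Among the members 71.8% were higher and 15.4% lower. A rise of at least 1 on the log2 scale was called for 15 members (38.5%), against 20.6% of all tested genes. The median log2 fold change of the members was 0.79, beside -0.01 over all tested genes. Groups did not overlap for 34 members (87.2%), and for 76.7% of all tested genes. All members passed the filter on low values, but Actg2 and Pdlim3 passed it only through the libraries labelled Bmal1 KO. The filter thus favoured a difference in both, and their calls are no support. Without these genes 26 of 37 members were higher and 6 lower, and the median was 0.76. Leaving out WT replicate 1 gave 28 members higher and 6 lower. Removing the length trend from every library, an alternative chosen after seeing the data, gave 27 and 6, and Myh10 lost its call (adjusted p = 0.309).

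**Figure D2:**
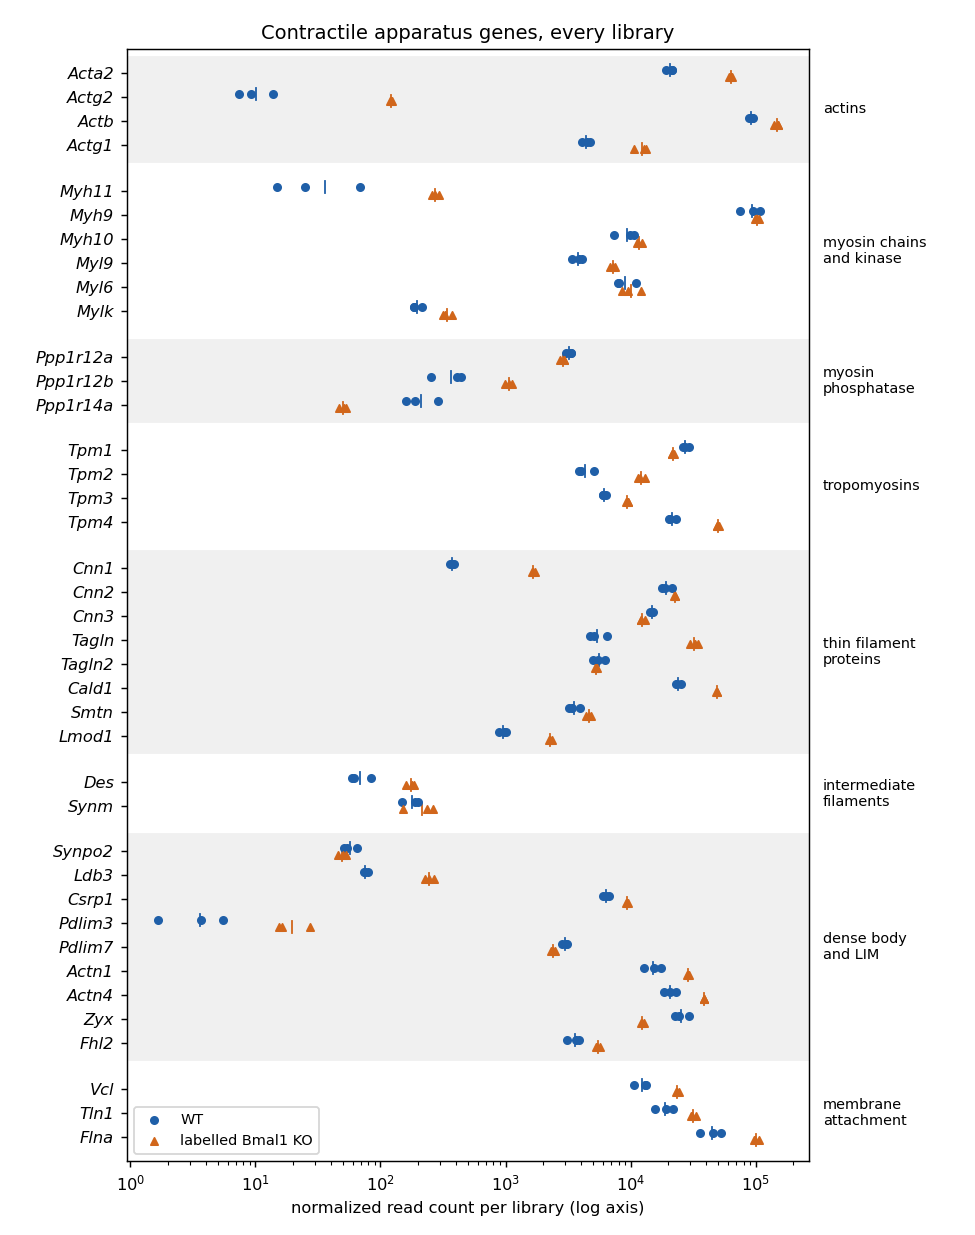
Normalized read counts (log axis) of the 39 contractile apparatus genes in each library, grouped by role. Circles are the 3 WT libraries, triangles the 3 libraries labelled Bmal1 KO, and vertical ticks the group means. Acta2, Tagln and Cnn1 lie well to the right in the libraries labelled Bmal1 KO, Zyx and Ppp1r14a lie to the left, and Myh9 and Tagln2 overlap.

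The members took a larger share of the sequenced RNA in the libraries labelled Bmal1 KO. They held 1.32%, 1.497% and 1.41% of assigned reads in WT replicates 1, 2 and 3, and 2.17%, 2.13% and 2.16% in the others. The groups did not overlap, and the means were 1.41% ± 0.0881 and 2.15% ± 0.0178 (SD, n = 3, exact two-sided permutation p = 0.1, the smallest that 3 against 3 libraries allow). Wilson 95% intervals reach at most 0.00497 percentage points to either side and cover counting error only. Actb, Myh9, Flna and Acta2 made up between 46.1% and 49.7% of the members' reads in every library.

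Promoter sequence was examined because serum response factor, a transcription factor known for driving contractile and cytoskeletal genes, binds the CArG box. RefSeq windows from 250 bases before to 50 after a gene start (GRCm38.p6) were present for 35 members, and Acta2 was among them. Actb, Actg2, Myh11 and Tagln had no entry. The strict CArG box, CC and GG around a run of A or T, has the same form on both strands. It was in a window of 7 of the 35 members (20%) and of 1.81% of all 27025 genes in the table. The members were Actg1, Cnn2, Fhl2, Ldb3, Myl6, Myl9 and Vcl. Of these, Myl6 did not pass the test between groups, and Cnn2 lost its call in some alternative settings. Acta2, Cnn1 and Lmod1, which rose, had a window without a strict match. A box with any other base in its core was not counted, so no match does not mean no CArG box. Fhl2 had matches before different listed starts, and Ldb3 had 1 match shared by its overlapping windows. Each stretch runs 5′ to 3′ on the gene's strand, is cut at the gene start, and has the match in capitals with up to 25 bases on either side.
Actg1, chr11:120348551-120348610, minus strand: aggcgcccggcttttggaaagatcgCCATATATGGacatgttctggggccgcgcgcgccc
Myl9, chr2:156775278-156775337, plus strand: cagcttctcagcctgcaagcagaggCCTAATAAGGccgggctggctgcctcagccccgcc
Vcl, chr14:20929148-20929205, plus strand: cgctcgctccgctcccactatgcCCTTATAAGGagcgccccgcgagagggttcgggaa
Ldb3, chr14:34588682-34588741, minus strand: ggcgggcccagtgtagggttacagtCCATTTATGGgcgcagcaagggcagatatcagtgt
Fhl2, chr1:43196823-43196882, minus strand: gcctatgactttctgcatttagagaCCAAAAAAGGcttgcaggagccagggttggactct
Fhl2, chr1:43163962-43164017, minus strand: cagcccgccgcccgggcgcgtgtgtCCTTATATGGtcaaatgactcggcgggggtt
Cnn2, chr10:79988519-79988578, plus strand: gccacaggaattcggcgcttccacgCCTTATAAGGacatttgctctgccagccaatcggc
Myl6, chr10:128493025-128493084, minus strand: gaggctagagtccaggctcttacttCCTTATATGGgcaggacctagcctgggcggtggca
The hexamer CACGTG, the E-box that CLOCK and BMAL1 bind, was in a window of 2 of the 35 members (Actg1 and Synm, 5.71%) and of 8.09% of all genes. CATTCC on either strand, the core bound by TEAD factors, was in a window of 13 members (37.1%) and of 16.6% of all genes. A match describes the letters only, and no link between matches and the difference between groups was tested.

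All 4 actins had higher values in every library labelled Bmal1 KO than in any WT library. Groups did not overlap, in either direction, for 76.7% of all tested genes. Acta2 encodes smooth muscle alpha-actin, the main actin of the vascular thin filament (chromosome 19, 34240336 to 34255585 in mm10). It stood at 21605, 21337 and 19120.5 normalized counts in WT replicates 1 to 3 and at 64724, 60939 and 63129.5 in the libraries labelled Bmal1 KO. Every library so labelled was higher than every WT library, by 3.04-fold on average (log2 fold change 1.61, SE 0.080, limma adjusted p = 1.64e-06). Actg2, the gamma-actin of visceral smooth muscle, was near the detection limit in WT at 9.17, 7.46 and 13.8, with 34 reads in all, and reached 120.2, 123 and 122 in the others. These groups did not overlap, but the gene passed the filter on low values only through the higher group, so the values are given without a test. Actb, which encodes the nonmuscle beta-actin often used as a reference gene, read 95657, 92561 and 88491 in WT against 151282, 139688 and 150941. It rose 1.60-fold (adjusted p = 0.000625). The nonmuscle gamma-actin gene Actg1 went from 4441, 4706 and 4097 to 10699, 13328 and 12686, a 2.77-fold rise (adjusted p = 6.71e-06). Of the 50-base words in annotated Actg1 transcripts, 37.4% also occur in transcripts of another gene, among them 12 pseudogenes, so the Actg1 level is uncertain. For Acta2 that share was 0.326% and for Actb 9.12%.

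The smooth muscle myosin heavy chain gene rose from a very low level, and the most abundant nonmuscle chain did not pass the test. Myh11, the heavy chain used as the most specific marker of smooth muscle (chromosome 16, 14194527 to 14292188), stood at 24.8, 14.9 and 68.2 in WT and at 259, 272 and 291 in the libraries labelled Bmal1 KO. WT replicate 3 held most of the WT reads, yet it stayed below all libraries of the other group. The log2 fold change was 3.17 (SE 0.48, adjusted p = 0.000576), and 3.76 without WT replicate 3. Myh9, the nonmuscle myosin IIA chain, ranged from 75386 to 107772 in WT and from 99536 to 106816 in the others, so the groups overlapped. Its log2 difference was 0.17 with a 95% interval from -0.17 to 0.50 (adjusted p = 0.322). Myh10, the nonmuscle IIB chain, was 1.25-fold higher (adjusted p = 0.0426), but lost the call in 9 of 18 alternative settings, under TMM scaling for one (adjusted p = 0.0659). Among the light chains, the regulatory chain gene Myl9 read 4056, 3858 and 3409 in WT and 7538, 6785 and 7200.2 in the others. It rose 1.90-fold without overlap (adjusted p = 2.96e-05). The essential light chain gene Myl6 overlapped between groups, at 8978 ± 1795 and 10068 ± 1875 (SD, n = 3, log2 interval -0.22 to 0.55, adjusted p = 0.388). Mylk, which encodes the kinase that starts contraction, was low throughout, at 185, 215 and 187 in WT and at 371, 329 and 318 in the others, and rose 1.73-fold (adjusted p = 0.000797).

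The myosin phosphatase genes moved in both directions. Ppp1r14a encodes CPI-17, the inhibitor that holds the phosphatase back when it is phosphorylated (chromosome 7, 29289320 to 29293390). It stood at 287, 160.0 and 189.7 in WT and at 52.99, 46.8 and 51.4 in the libraries labelled Bmal1 KO. This was the largest fall among the members by fold, 4.21-fold with no overlap (log2 fold change -2.01, SE 0.24, adjusted p = 0.000159). Ppp1r12b, a myosin-targeting subunit of the phosphatase abundant in striated muscle, read 253, 412 and 437 in WT and 1061, 1129 and 981 in the others. It rose 2.88-fold (adjusted p = 0.000241). The main smooth muscle targeting subunit, MYPT1, is encoded by Ppp1r12a. That gene was 1.13-fold lower (adjusted p = 0.0453), and the call was lost in 9 of 18 alternative settings, with the replicate block among them (adjusted p = 0.0578).

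Of the tropomyosins, which lie along the actin filament and gate the access of myosin, 3 rose and 1 fell. Over all tested genes, 36.2% were higher and 34.9% lower. Tpm2, which encodes beta-tropomyosin, read 5098, 4038 and 3882 in WT and 13113, 11363 and 11794 in the libraries labelled Bmal1 KO, a 2.79-fold rise (adjusted p = 1.36e-05). Tpm4 averaged 21302 ± 1643 in WT and 49926 ± 1058 in the others (SD, n = 3), which is 2.34-fold higher (adjusted p = 6.82e-06). Tpm3 rose 1.53-fold (adjusted p = 4.60e-05). Tpm1, the alpha-tropomyosin gene with both muscle and nonmuscle transcripts, moved the other way. Its values were 29254, 27069.7 and 26015 in WT against 22322, 21312 and 21453, and the groups did not overlap (log2 fold change -0.34, SE 0.072, adjusted p = 0.00354). Counts per gene do not separate the muscle and nonmuscle transcripts of these genes. Tpm3 and Tpm4 shared 23.2% and 15.7% of their 50-base words with other genes.

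**Figure D3:**
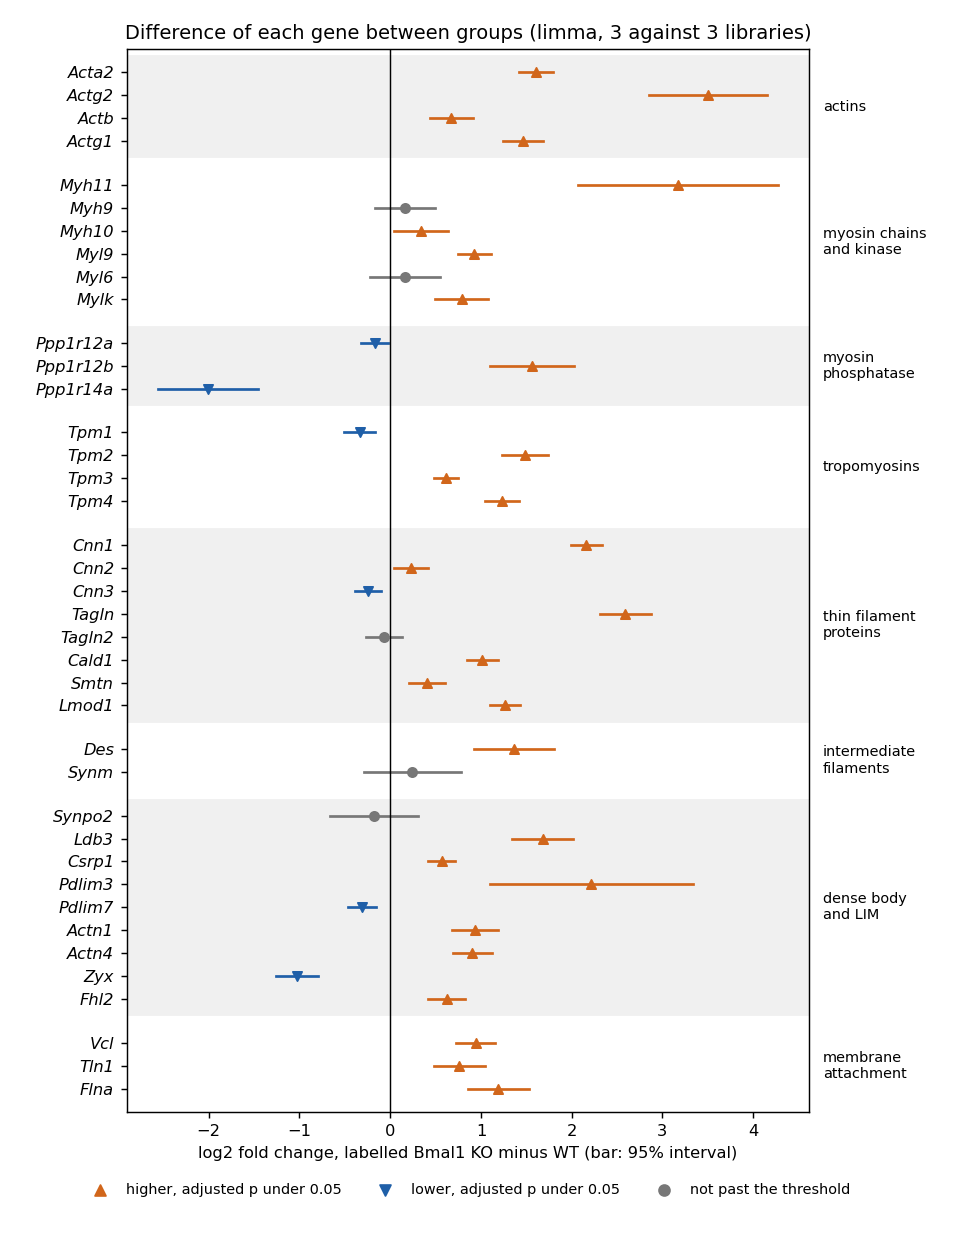
Log2 fold change of each member, libraries labelled Bmal1 KO minus WT, with its 95% interval from limma over 3 against 3 libraries. Upward triangles passed the test as higher (28 genes), downward triangles as lower (6 genes), and grey circles did not pass (5 genes). The widest intervals belong to Myh11 and Pdlim3, which had few reads in WT.

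Among the 8 genes for proteins that bind the thin filament, 6 rose, 1 fell and 1 did not pass. The shares over all tested genes were 36.2% higher and 34.9% lower. Tagln encodes SM22, an actin-bundling protein of smooth muscle (chromosome 9, 45929628 to 45936058). It read 6438, 5079.9 and 4712 in WT and 34690.5, 29833 and 32478 in the others. All libraries labelled Bmal1 KO were far above WT, 5.98-fold on average (log2 fold change 2.59, SE 0.12, adjusted p = 1.12e-06). An annotated antisense transcript overlaps much of Tagln, and 58.4% of its 50-base words occur in another gene. The strand setting of the counting was not given in the sources used here, so reads of both could be mixed. The related gene Tagln2, found in many cell types, overlapped between groups at 5567 ± 651 and 5278 ± 69.8 (SD, n = 3, log2 interval -0.27 to 0.13, adjusted p = 0.483). Cnn1, basic calponin, which slows the actin-activated ATPase of myosin, stood at 387, 374 and 359 in WT and at 1662, 1709.7 and 1637 in the others. It rose 4.47-fold (adjusted p = 2.40e-07). The more widely expressed calponins changed little. Cnn2 was 1.17-fold higher (adjusted p = 0.0348), a call lost in 8 of 18 alternative settings, TMM scaling included (adjusted p = 0.0565). Cnn3 was 1.18-fold lower (adjusted p = 0.00698), and 24.0% of its 50-base words occur in other genes. Cald1, caldesmon, a brake on actomyosin, had 24091 ± 1199.5 in WT and 48640.3 ± 703 in the others, a 2.02-fold rise (SD, n = 3, adjusted p = 1.12e-05). Lmod1, leiomodin, which nucleates actin filaments, read 964, 1000.1 and 882 in WT and 2368, 2248 and 2239 in the others, 2.41-fold higher (adjusted p = 3.22e-06). Smtn, smoothelin, rose 1.32-fold (adjusted p = 0.00352).

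Intermediate filaments link dense bodies to each other. Des, the desmin gene, was low in all libraries, at 83.5, 58.9 and 61.7 in WT and at 161, 179 and 185 in the libraries labelled Bmal1 KO. It rose 2.57-fold without overlap (adjusted p = 0.000387). Its partner synemin, encoded by Synm, read 149, 189 and 199 in WT and 151, 237 and 262 in the others. These groups overlapped (log2 interval -0.29 to 0.78, adjusted p = 0.363), and the gene passed the test without replicate 1 of the libraries labelled Bmal1 KO (adjusted p = 0.0480).

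Dense body and LIM-domain genes split, with 6 of 9 higher (Pdlim3 among them), 2 lower and 1 that did not pass. Beside this, 36.2% of all tested genes were higher and 34.9% lower. The alpha-actinins cross-link actin filaments in dense bodies. Actn1 read 12804, 17351 and 15404 in WT and 29075, 28219 and 28974 in the others, 1.89-fold higher, and Actn4 was 1.86-fold higher (adjusted p = 0.000155 and adjusted p = 7.38e-05). Zyx, which encodes zyxin, a LIM protein of focal adhesions and stress fibres (chromosome 6, 42349511 to 42360213), fell. It stood at 22633, 29324 and 24443 in WT and at 12103, 12841 and 12309.9 in the libraries labelled Bmal1 KO, a 2.05-fold difference with no overlap (log2 fold change -1.03, SE 0.10, adjusted p = 5.47e-05). Pdlim7, which carries PDZ and LIM domains, was 1.24-fold lower (adjusted p = 0.00325). Ldb3, a Z-line protein gene best known from striated muscle, read 73.4, 79.6 and 74.6 against 245, 227 and 266 and rose 3.24-fold (adjusted p = 3.03e-05). The LIM genes Csrp1 and Fhl2 rose 1.48-fold and 1.53-fold (adjusted p = 0.000110 and adjusted p = 0.000394). Pdlim3 had only 12 WT reads and was at 3.67, 1.66 and 5.53 against 16.3, 15.6 and 27.4. It too passed the filter only through the higher group, and its log2 difference was 2.22, or 1.52 with a pseudocount of 5. Synpo2, an actin-binding protein of the Z-line, was near 50 in both groups and overlapped (56.6 ± 6.95 and 49.6 ± 3.76, SD, n = 3, adjusted p = 0.455).

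The genes that fasten actin to the membrane all rose, where 36.2% of all tested genes were higher. Flna encodes filamin A, which cross-links actin and ties it to integrins (chromosome X, 74223461 to 74249854). It read 35655, 52454 and 45701 in WT and 98065, 106177 and 97577 in the libraries labelled Bmal1 KO, 2.26-fold higher (adjusted p = 0.000187). Vcl, the vinculin gene, read 10712, 13319 and 12925 in WT against 23118, 24467 and 23258, 1.92-fold higher (adjusted p = 5.79e-05). Tln1, the gene for the integrin activator talin, was at 18765 ± 3077 and at 31567 ± 1573 (SD, n = 3), 1.68-fold higher (adjusted p = 0.000773). A neighbouring gene shares 25.1% of the 50-base words of Vcl transcripts.

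Related genes were also set against each other within each library, which hardly depends on how libraries are scaled. The length trend described above can still enter a ratio of genes that differ in length. Ratios with the trend removed were not computed. Of 13 ratios, 11 did not overlap between groups, and in these the ratio was higher in the libraries labelled Bmal1 KO. Actg2 to Actg1 is among the 11, but Actg2 passed the filter on low values only through the libraries labelled Bmal1 KO. The filter thus favoured a difference in that ratio. For comparison, 76.7% of single tested genes did not overlap, and the share for other gene pairs was not computed, so the count itself is no result about these pairs. The exact two-sided permutation p was 0.1 for each of the 11, the smallest possible, and 0.118 after Benjamini-Hochberg adjustment over the 13 ratios. For Actg2 to Actg1 these values are not to be read as a test. Acta2 stood at 0.226, 0.231 and 0.216 of the Actb count in WT and at 0.428, 0.436 and 0.418 in the others. Myh11 amounted to 0.396 counts per 1000 of Myh9 in WT on average and to 2.67 in the libraries labelled Bmal1 KO. Nonmuscle chains thus supplied nearly all myosin heavy chain reads in both groups. Tagln was about level with Tagln2 in WT (mean ratio 0.990) and at 6.13 in the others. Tpm2 moved from 0.158 to 0.557 of Tpm1, and Ppp1r12b from 0.113 to 0.368 of Ppp1r12a. The ratio of Acta2 to Actg1 overlapped, with log2 means of 2.23 ± 0.051 and 2.37 ± 0.21 (SD, n = 3, exact p = 0.3). Actn1 to Actn4 overlapped too (mean ratios 0.729 and 0.743, exact p = 0.6).

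**Figure D4:**
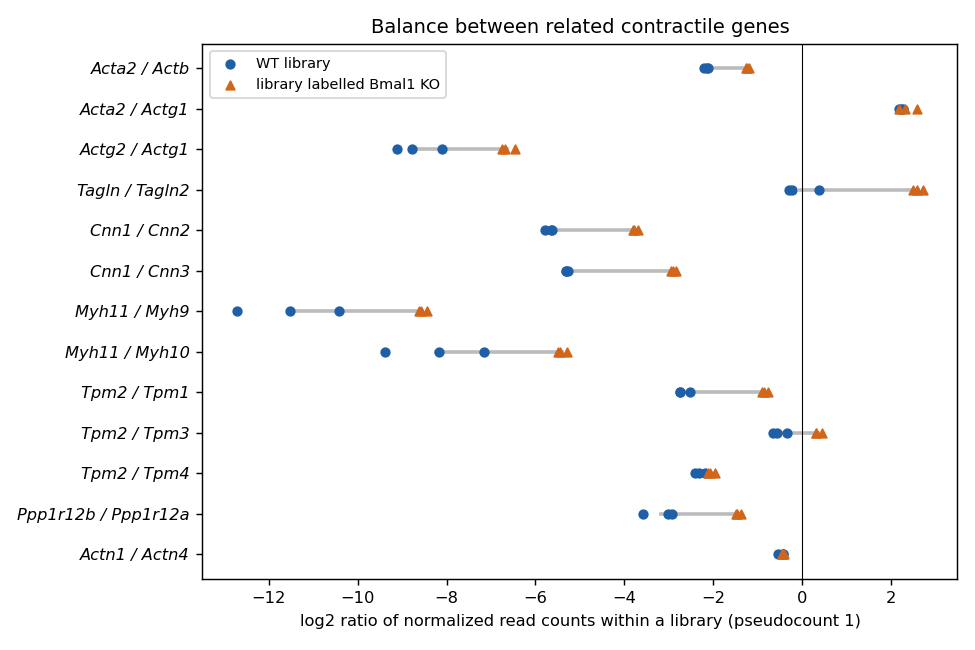
Log2 ratio of the normalized counts of related genes within each library (pseudocount 1). Circles are WT libraries, triangles libraries labelled Bmal1 KO, and grey bars join the group means. Triangles lie to the right of all circles in 11 of 13 pairs, and overlap them for Acta2 to Actg1 and for Actn1 to Actn4. The 11 include Actg2 to Actg1, and Actg2 passed the filter on low values only through the libraries labelled Bmal1 KO.

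Levels between genes were compared as mean normalized counts per kilobase of exon. By this measure Actb was the highest member in both groups, at 34429 in WT and 54984 in the libraries labelled Bmal1 KO. Tpm4 and Acta2 followed in WT at 9670 and 9421, and in reverse order in the others at 22663 and 28657. Tagln moved from rank 15 to rank 4 of the 39, and Zyx from rank 8 to rank 22. Myh11, Actg2, Des, Synm, Mylk, Ppp1r12b, Ldb3, Synpo2 and Pdlim3 stayed below 100 per kilobase in both groups. Of the smooth muscle markers, Acta2, Tagln and Cald1 were abundant in WT at 9421, 2721 and 2001 per kilobase, while Myh11 and Des stood at 4.73 and 18.1. Smtn, Lmod1 and Cnn1 lay between, at 805, 240 and 136. Counts per gene do not separate the transcripts of a gene, for Cald1 as for the tropomyosins. Myocd, the gene for the smooth muscle coactivator myocardin, was at 6.42, 0.829 and 0.921 in WT and at 89.7, 71.9 and 85.7 in the others, and it passed the filter only through the latter.

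Other genes of contraction were chosen as lists that leave out the 39 members. Beside them, 36.2% of all tested genes were higher and 34.9% lower, 71.1% in all. The median log2 fold change over all tested genes was -0.01. Among 30 genes that switch contraction on or off, 18 were higher, 4 were lower and 8 missed the threshold (median log2 fold change 0.49). Mrvi1, which encodes a partner of cGMP-dependent kinase, was at 9.17, 14.1 and 13.8 in WT and at 398, 408 and 432 in the libraries labelled Bmal1 KO. WT replicate 1 was under the filter's minimum of 10, so the gene passed only through the higher group. Mylk2, also counted as higher, passed in the same way. Rock2, a kinase gene whose product inhibits myosin phosphatase, stood at 4514 ± 329.6 in WT and at 28061 ± 1172 in the others (SD, n = 3), 6.22-fold higher (adjusted p = 9.56e-08). Prkg1, the cGMP-dependent kinase gene, rose 3.20-fold (adjusted p = 1.20e-05). The light chain gene Myl6b fell 3.47-fold, from 962 ± 91.9 to 278 ± 31.0 (adjusted p = 7.98e-06).

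Genes of actin filament turnover gave 20 of 29 higher, 2 lower and 7 below the threshold for a call (median log2 fold change 0.57). Tmsb4x, counted as higher, passed the filter only through the libraries labelled Bmal1 KO. Gsn, the filament-severing gelsolin, stood at 20056 ± 1218 in WT and at 135561 ± 5152 in the others (SD, n = 3), 6.76-fold higher (adjusted p = 1.52e-07). The cofilin kinase gene Limk1 rose 4.04-fold, the capping gene Tmod2 3.60-fold and the formin gene Diaph3 2.15-fold. Of 32 tested focal adhesion, LIM and cross-linking genes, 19 were higher and 7 lower, and 6 gave no call (median log2 fold change 0.41). Smtnl2, counted as lower, passed the filter only through WT. Of the genes counted as higher, Itga8, Tns1 and Sorbs2 had log2 fold changes of 3.17, 2.70 and 2.20. In the dystrophin complex, which ties actin to the matrix, 7 of 12 were higher and 2 lower, and 3 gave no call (median log2 fold change 0.82). Dmd, dystrophin, had 104 ± 16.9 in WT and 863 ± 63.1 in the others (SD, n = 3), 8.26-fold higher (adjusted p = 1.25e-06), and Sgcd and Dag1 had log2 fold changes of 1.73 and 1.45.

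Markers of other cells moved as well, and their part in these differences was not tested. By the same rule 36.2% of all tested genes were higher and 34.9% lower. Some markers were under the filter's minimum of 10 in some library and passed only through the group where they were higher. The filter favoured a difference in these genes, and they are among the calls below. They numbered 5 endothelial, 5 macrophage and leukocyte, 2 pericyte, 6 striated muscle, 1 Schwann and neural, and 2 mesothelial and epithelial. Summed endothelial markers (10 genes, 8 higher, 0 lower) ran from 381 to 540 normalized counts in WT and from 1014 to 1337 in the libraries labelled Bmal1 KO, with Vwf the most abundant. Macrophage and leukocyte markers (11 genes, 8 higher, 2 lower) summed to between 3623 and 4209 and to between 2442 and 2994. Cd14, the most abundant of them, fell 7.14-fold, and without it the sums went the other way, from between 869.9 and 1144 to between 2052 and 2562. Fibroblast markers (9 genes, 5 higher, 4 lower) summed to between 43719 and 45673 and to between 33351 and 36433. Here too the most abundant gene, Dcn, fell 10.95-fold, and without it the sums were higher, at 30939 to 33957 against 17136 to 18828. Pericyte markers (4 of 7 tested higher, 2 lower) overlapped in sum, from 20591 to 28549 and from 27328 to 29033, with Pdgfrb leading. Striated muscle markers (19 genes, 12 tested, 5 higher, 5 lower) overlapped too, from 443 to 675 and from 629 to 1087. Acta1 led that list, and Myog was at 0 in every library. Schwann and neural markers (7 of 7 tested higher, led by Pmp22) summed to between 7180.4 and 7413 and to between 14699 and 16215. Mesothelial and epithelial markers (8 genes, 4 higher, 3 lower, led by Msln) ran from 3798 to 5062 and from 6892 to 10856, but overlapped without Msln (3416 to 4705 and 2439.9 to 6410).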

How the data were processed

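RNA was sequenced from 6 libraries, prepared from 1.0 µg of total RNA with a stranded mRNA kit, per the labels' protocols. The submitters' processing notes name Trimmomatic, HISAT2, featureCounts and mm10. No version, annotation or strand setting was given in the sources used here. The deposited table holds a signal per gene and library, read counts that the authors divided by 1 factor per library. In each library 100% of values were whole multiples of the value of 1 read, within 0.01, and the implied factors ran from 0.834 to 1.21.

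The main test was limma 3.58.1 (R 4.3.3) on log2(value + 1), fitted with its trended variance prior and group as the only term, and tested on simulated data. Genes had to reach 10 normalized counts in 3 or more libraries. Log2 fold changes are on that scale, which understates changes of low genes. Folds are ratios of group means. Alternatives were pseudocounts of 0.5 and 5, other scalings and filters, edgeR 4.0.16, DESeq2 1.42.0 and voom on recovered reads, a replicate block, each library left out and a length trend. The edgeR test called 11479 genes.

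The members, gene lists and tests were chosen with earlier results of these data known. Of each list of other contractile, adhesion and turnover genes, up to 4 are named: the largest log2 fold changes among genes past the threshold with a mean of at least 100. Some genes that this rule names are not reported here. Of each list of other cell markers the most abundant gene is named. Myocd was among the smooth muscle markers. 1 list gene, Ppp1cc, was not matched in the table. Exonic lengths and 50-base words came from GENCODE M21, on the same build, with lengths for 92.5% of tested genes. No pair of replicates was so alike that sampling noise alone could give it. 0 value columns stayed unmapped.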

Additional observations from a re-analysis of the deposited data

How the results depend on the processing

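Over 18 alternative settings, 33 of 39 members kept their direction and their side of the threshold in each one that tested them (Pdlim3 was not tested with the filter at 50). Of 701 member values, 671 did so, 26 lost the call (Myh10, Cnn2 or Ppp1r12a), 1 gained it and 3 changed sign among genes that had not passed. Those were Tagln2, whose log2 fold change ran from -0.15 to 0.017 with 1 library left out (0.017 without WT replicate 2) and was 0.073 with the length trend removed, and Myh9 with the trend removed (-0.14). The ratio of Actn1 to Actn4 changed sign without WT replicate 1 (log2 difference -0.0073, range -0.0073 to 0.049 with 1 library left out). Members called higher ranged from 26 to 28 and lower from 5 to 6, and their median log2 fold change from 0.72 to 0.87. CPM scaling, TMM or the upper quartile put the median log2 fold change of all genes at -0.085, -0.042 and 0.027. With the replicate number as a block, 28 members were higher and 5 lower. Deviations of same-numbered libraries correlated at -0.0045, 0.026 and 0.084 over genes, and those of differently numbered libraries at between -0.13 and 0.094. With so few libraries these values cannot settle whether the numbers pair them. Below about 10 normalized counts, as for Actg2 and Pdlim3 in WT, depth limits the fold.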

Other observations

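Adhesion genes that work with zyxin were looked at after their values were seen, within the lists named above. Trip6, a LIM protein gene of the zyxin family, fell with Zyx, from 3225, 2965 and 2773 normalized counts in WT to 1766, 1629 and 1653 in the libraries labelled Bmal1 KO (log2 fold change -0.83, SE 0.075, limma adjusted p = 3.76e-05). Lpp, the other family member in the list, rose (log2 fold change 0.47, SE 0.081, adjusted p = 0.00116). Vasp and Enah, whose products bind zyxin and extend actin filaments, had log2 fold changes of -0.53 and -0.49 (adjusted p = 0.000264 and adjusted p = 0.000784), while their relative Evl had 0.40 (adjusted p = 0.00896). The adhesion scaffold genes Bcar1, Lims1 and Pxn had log2 fold changes of -0.63, -0.43 and -0.25, with adjusted p = 0.000120, adjusted p = 0.000310 and adjusted p = 0.0361. Other genes of the focal adhesion, LIM and cross-linking list went both ways. Lims2, Tgfb1i1, Parva and Fermt2 rose, with log2 fold changes of 1.52, 0.66, 0.59 and 0.22. Pdlim2 and Pdlim4 fell, with log2 fold changes of -0.87 and -0.36 (limma adjusted p = 0.000104 and adjusted p = 0.0301). That list as a whole held 19 higher and 7 lower genes. Smtnl2, counted as lower, passed the filter on low values only through WT. Ilk, from the list of genes that switch contraction, rose too (log2 fold change 0.74).

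Relatives of the phosphatase inhibitor gene Ppp1r14a did not fall with it. Ppp1r14b rose from 4877 ± 549 to 6443 ± 129 normalized counts (SD, n = 3, adjusted p = 0.00303). Ppp1r14c overlapped between groups, at 10.9 ± 7.98 in WT and 29.2 ± 13.5 in the libraries labelled Bmal1 KO. This gene passed the filter on low values only through the latter, so its values are given without a test. Smtnl2, a relative of the smoothelin gene, stood at 53.9 ± 4.26 in WT and at 10.9 ± 3.78 in the others (SD, n = 3), and passed the filter on low values only through WT.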
